A study of Mus musculus with 4 samples.

Results

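Cerebellar Purkinje and granule cell genes were followed across 4 arrays that compared the ears of mice exposed to diesel exhaust particles (DEPs) with control ears. The 10 genes were Pcp2, Pcp4, Itpr1, Calb1 and Car8 of the Purkinje cell, Zic1, Zic2, Cbln1 and Cbln3 of the granule cell lineage, and En2, a patterning gene of the midbrain and hindbrain. They were chosen by their low DEP over control ratios on arrays 1 and 2, so their values on those arrays, and every mean that holds them, are given as a description without a test. All probes whose accession belonged to one of the genes were taken, which gave 12 probes in 21 spots out of 39429 probes, of which 27649 carried a symbol of one of 20967 genes. Car8 and Zic1 had 2 probes each, En2 had 1 probe printed in 10 spots, and the other 7 genes had 1 probe in 1 spot each.

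The mice were male BALB/c animals of 6 to 10 weeks, 9 in all, and the exposed mice inhaled DEPs for 1 h a day on 5 days and were killed on day 14. RNA came from the dissected middle ear, taken from the harvested temporal bone area, so each extract was a bulk tissue sample. Every array carried a DEP ear extract labelled with the dye Cy5 and a control ear extract, whose treatment the labels give as none, labelled with Cy3. How many mice stood behind an extract, and whether the 4 control extracts came from separate mice, is not given in the sources used here. The p-values below therefore measure the spread between arrays, which may be technical.

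Purkinje cells are the sole output neurons of the cerebellar cortex, and they read the activity of the very numerous granule cells through parallel fibre synapses. In Purkinje cells glutamate signalling drives calcium release through the inositol trisphosphate receptor, while at the parallel fibre synapse cerebellins secreted by granule cells bind presynaptic neurexins. In the mouse a lobule of the cerebellum, the paraflocculus, lies in the subarcuate fossa of the temporal bone. In bulk tissue, fewer cells of a type and less RNA per cell cannot be told apart.

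The RefSeq table (GRCm38.p6) held promoter windows of 300 bases, from 250 bases before to 50 after the gene start, for 4 of the 10 genes. They are shown because they are the start regions of genes with a shared array pattern. Capitals mark matches on either strand to the nuclear receptor half-site, spelled AGGTCA, or to the GC box, spelled GGGCGG. The TATA box, spelled TATAAA, was searched on both strands too, and no motif overlapped another. Pcp2 had 4 windows, of which the first is shown (chr8:3625498-3625797, minus strand). The others lie at chr16:96467356-96467655 on the plus strand for Pcp4, chr9:91365719-91366018 on the minus strand for Zic1 and chr14:55884207-55884506 on the minus strand for Cbln3.
Pcp2: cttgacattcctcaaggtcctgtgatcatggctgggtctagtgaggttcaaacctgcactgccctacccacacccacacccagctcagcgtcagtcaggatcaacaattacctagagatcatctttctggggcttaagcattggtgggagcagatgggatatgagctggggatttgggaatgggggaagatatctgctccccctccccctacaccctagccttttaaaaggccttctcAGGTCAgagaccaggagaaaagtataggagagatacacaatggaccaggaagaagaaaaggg
Pcp4: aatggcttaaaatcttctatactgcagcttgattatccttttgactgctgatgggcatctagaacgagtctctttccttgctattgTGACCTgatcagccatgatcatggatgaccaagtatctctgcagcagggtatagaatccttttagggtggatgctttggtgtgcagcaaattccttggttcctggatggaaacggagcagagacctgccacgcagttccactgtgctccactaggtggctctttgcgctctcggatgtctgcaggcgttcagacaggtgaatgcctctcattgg
Zic1: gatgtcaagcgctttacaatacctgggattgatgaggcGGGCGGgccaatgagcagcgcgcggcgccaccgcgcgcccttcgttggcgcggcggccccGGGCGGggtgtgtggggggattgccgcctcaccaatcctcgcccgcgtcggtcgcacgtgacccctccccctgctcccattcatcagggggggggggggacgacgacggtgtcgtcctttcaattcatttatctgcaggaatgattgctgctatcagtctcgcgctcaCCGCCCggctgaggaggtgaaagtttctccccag
Cbln3: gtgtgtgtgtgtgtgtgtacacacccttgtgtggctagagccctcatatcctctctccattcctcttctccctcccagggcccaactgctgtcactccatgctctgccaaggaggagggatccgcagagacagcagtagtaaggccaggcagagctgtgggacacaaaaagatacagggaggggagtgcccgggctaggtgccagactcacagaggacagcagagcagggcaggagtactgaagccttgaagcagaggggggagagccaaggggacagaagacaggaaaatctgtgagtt

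The half-site stood once in the Pcp2 window, at -12 from the start, and once in the Pcp4 window, at -164. Of all 32851 windows in the table, 16.3% held it. The Zic1 window held 3 GC boxes, at -212, -152 and 17, a motif present in 35.7% of all windows. None of the 3 motifs was found in the Cbln3 window, and the TATA box, held by 13.6% of all windows, was in none of the 4 windows shown. Of the other 3 windows of Pcp2, 1 held a TATA box, at -114, and the others held a half-site each, at -87, which is the site of the first window, and at -26. These matches are letters in a window and were not measured as binding sites.

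Ratios are given as log2 of the DEP channel over the control channel, so that a negative value is lower in the DEP ear. This direction follows the source names and dyes in the labels and is opposite to the one in which the paper lists genes such as Slc1a2. The labels list both treatments under the first channel and none under the second, so the assignment rests on the source names. With the dyes the other way round, DEP ear and control ear would change places in every value below. The arrays lay on 1 slide and were scanned once, and no dye was swapped, so a dye preference of a probe cannot be told apart from the exposure. Between 65.5 and 69.0% of the probes were well above background in Cy5 and between 59.3 and 68.1% in Cy3. Shares over the whole array count features, which are the named genes and, where a probe has no gene symbol, its accession or the probe itself. The median log2 ratio over all features was 0.03 over the 4 arrays.

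The members differed by array. On arrays 1 and 2 all 10 genes lay past 2-fold lower in the DEP ear, where 4.89% of all 26029 features with a ratio on both arrays did. On array 1 alone 9.53% of all features did, and on array 2 alone 6.84%. The choice of genes used those arrays, so nothing is read from these counts. The median over the members was a log2 ratio of -3.51 on array 1 and -3.74 on array 2, and then -0.32 on array 3 and 0.26 on array 4. These medians hold Calb1, Car8 and Cbln3, whose DEP signals were near background, and over the other 7 members they were -2.55, -3.16, -0.32 and 0.24. On array 3, 7 of the 9 members with a ratio were below 0, and on array 4, 1 of 8 was. Past 2-fold lower on array 3 lay 1 member, Cbln3, from signals near background, where 5.68% of all features did. On array 4 the lowest member was at -0.07.

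**Figure D1:**
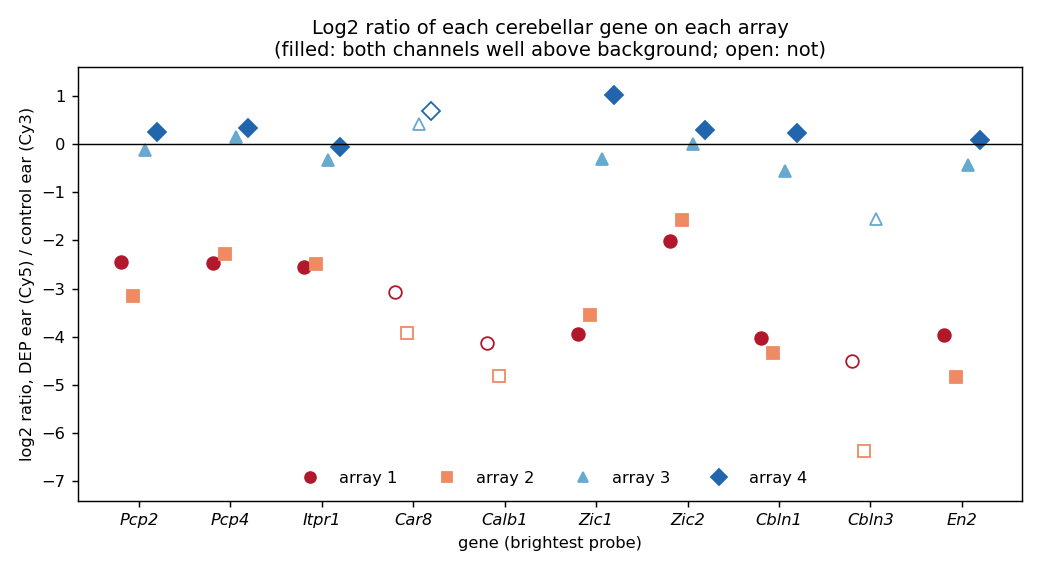
Log2 ratio of the DEP ear over the control ear (vertical axis) of the brightest probe of each of the 10 genes (horizontal axis), with 1 point for each array, open where a channel was not well above background. On arrays 1 and 2 every gene lies below -1, and on array 4 the filled points lie between -0.07 and 1.01.

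Pcp2, a Purkinje cell protein that modulates G protein signalling, had control ear signals of 30196, 24109, 885 and 154 on arrays 1 to 4. Its DEP ear signals on the same arrays were 5490.1, 2695, 811 and 181. The control signal was high on arrays 1 and 2 and low on arrays 3 and 4, and so was the DEP signal, so that both channels separated arrays 1 and 2 from the others. The log2 ratios were -2.46, -3.16, -0.13 and 0.24, with a mean of -1.38 ± 1.69 (SD, n = 4).

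Pcp4, a small calmodulin-binding protein, gave control signals of 28873, 22738, 3118 and 2998. Its DEP signals were 5194, 4688, 3423 and 3765, and spanned 1.20-fold between the lowest and highest array once each channel was divided by its 75th percentile. The scaled control signals spanned 6.41-fold. The log2 ratios of -2.47, -2.28, 0.13 and 0.33 (mean -1.07 ± 1.51, SD, n = 4) thus split the arrays as the control channel did.

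Itpr1, the inositol trisphosphate receptor of the Purkinje cell endoplasmic reticulum, showed the same split. The control signals were 30013, 21159, 4849 and 3456, and the DEP signals were 5132, 3749, 3851 and 3288. After scaling, the control channel spanned 5.48-fold and the DEP channel 1.21-fold. Itpr1 was the only member with 4 ratios whose brightest probe was below 0 on all 4 arrays, at -2.55, -2.50, -0.33 and -0.07 (mean -1.36 ± 1.34, SD, n = 4).

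Calb1, the calcium buffer calbindin, and Car8, a carbonic anhydrase-related protein that binds Itpr1, were dim. Neither was well above background in the DEP ear on any array, and both were above it in the control ear on arrays 1 and 2 alone. Calb1 had control signals of 248 and 222 on those arrays. Set against the lowest DEP signal that was well above background, the DEP ear was at least 7.98-fold lower on array 1 and at least 11.0-fold lower on array 2. Over all 4 arrays, with the control ear above background on 2 of them, the bound was at least 1.69-fold lower. Calb1 had no ratio on arrays 3 and 4 and so did not enter the fit over 4 arrays.

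The Car8 probes gave control signals of 178 and 152 (A_51_P392005) and of 163 and 107 (A_66_P126640) on arrays 1 and 2. The first was at least 5.73-fold and 7.52-fold lower in the DEP ear on these arrays, and the second at least 5.24-fold and 5.28-fold lower. Over the 4 arrays the bounds were at least 1.54-fold for the first probe and at least 1.28-fold for the second.

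Among the granule cell genes, Zic1, a zinc finger transcription factor of granule cell precursors and mature granule cells, had control signals of 21372, 13163, 1478 and 581 on its brighter probe, A_51_P194230. Its DEP signals were 1391, 1122, 1184 and 1168. The DEP channel had a scaled span of 1.34-fold across the arrays, while the control channel spanned 23.2-fold. The log2 ratios were -3.94, -3.55, -0.32 and 1.01 (mean -1.70 ± 2.43, SD, n = 4), so the sign turned on array 4.

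The other Zic1 probe, A_55_P2009774, gave control signals of 693, 527, 148 and 145 and DEP signals of 188, 188, 141 and 135. Its log2 ratios of -1.88, -1.49, -0.07 and -0.10 showed the same split at a smaller size, and it disagreed with the first probe in sign on array 4. Zic2, a close relative of Zic1, had control signals of 807, 817, 237 and 179 and DEP signals of 199, 274, 236 and 218. Its log2 ratios of -2.02, -1.58, -0.01 and 0.29 (mean -0.83 ± 1.14, SD, n = 4) were the smallest in size on arrays 1 and 2 among the members' brightest probes.

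Cbln1, the secreted cerebellin of the parallel fibre synapse, had control signals of 10156, 8367, 389 and 86.9. The DEP signals were 625, 416, 262 and 101. Both channels were higher on arrays 1 and 2 than on arrays 3 and 4, and the control channel far more so, with scaled spans of 81.4-fold in the control ear and 3.89-fold in the DEP ear. The log2 ratios were -4.02, -4.33, -0.57 and 0.22 (mean -2.17 ± 2.34, SD, n = 4).

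Cbln3, which assembles with Cbln1 in granule cells, was not well above background in the DEP ear on any array. In the control ear it reached 387 and 377 on arrays 1 and 2 and was not well above background on arrays 3 and 4. The DEP ear was at least 12.4-fold lower on array 1 and at least 18.7-fold lower on array 2, and at least 2.84-fold lower over the 4 arrays.

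En2, the engrailed homeobox gene of the midbrain and hindbrain territory, had a probe printed in 10 spots. The mean control signals were 2819, 1737, 120 and 48.9, and the DEP signals were 182, 61.9, 88.4 and 53.0. On array 1 the 10 spots gave log2 ratios from -4.06 to -3.77, and on array 2 from -4.93 to -4.63. On array 3 they ran from -0.60 to -0.30 and on array 4 from -0.21 to 0.57, where 7 of the 10 spots were well above background in the control ear. The SD between spots was 0.07, 0.10, 0.10 and 0.28 on arrays 1 to 4, and the mean over the arrays was -2.29 ± 2.47 (SD, n = 4).

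The channels were then read one at a time over the 7 members that passed the background criterion in at least 1 spot of each channel and array (Pcp2, Pcp4, Itpr1, Zic1, Zic2, Cbln1 and En2). Signals were first divided by the 75th percentile of their array and channel. In the control ear, arrays 1 and 2 then lay above arrays 3 and 4 for 7 of 7. The lower scaled signal of arrays 1 and 2 exceeded the higher of arrays 3 and 4 by 2.16-fold (Zic2) to 21.7-fold (Pcp2). In the DEP ear, the scaled signals of arrays 1 and 2 lay above those of arrays 3 and 4 for 2 of 7, Pcp2 at 2.81-fold and Cbln1 at 1.34-fold. Before scaling, Pcp4 did so too. The scaled control signals spanned a median of 23.2-fold between arrays and the scaled DEP signals 1.87-fold. These spans describe the values by which the genes were chosen, since low ratios on arrays 1 and 2 favour a high control signal there, and they leave out Calb1, Car8 and Cbln3.

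**Figure D2:**
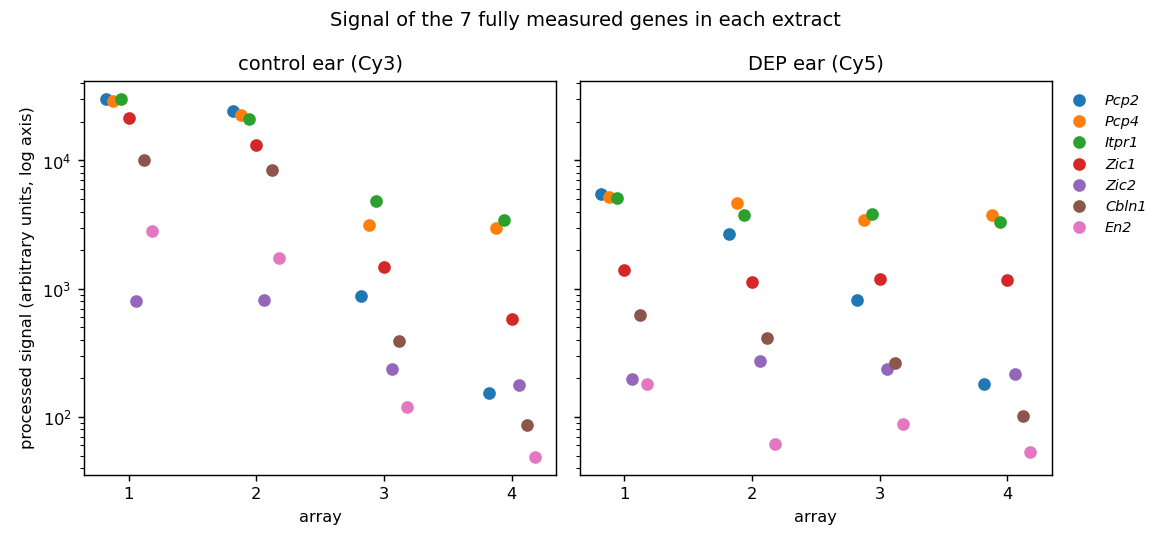
Processed signal (vertical axis, log scale) of the brightest probe in the control ear (Cy3, left) and the DEP ear (Cy5, right) on arrays 1 to 4 (horizontal axis). For the 7 genes shown, the control signal on arrays 1 and 2 lies above that on arrays 3 and 4. The DEP signal, which is not scaled here, does so for Pcp2, Pcp4 and Cbln1.

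By the mean of the 4 arrays, 8 of the 9 members with at least 3 ratios lay past 2-fold lower, with Zic2 the exception. The ratios of Car8 and Cbln3 in this count came from DEP signals near background. Over all 25694 features in that fit, 4.37% lay past 2-fold lower. With normexp background correction and median centring, the count of members past 2-fold lower was 5 of 9. Leaving out 1 array changed the count of members too. Without array 1 or without array 2 it was 4 of 9, and without array 3 or without array 4 it was 10 of 10, where 2 ratios were enough and Calb1 entered from its ratios on arrays 1 and 2.

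Arrays 3 and 4 had no part in the choice of genes, although earlier results of these arrays were known. In limma's moderated test over these 2 arrays, 0 of the 8 members with a ratio on both had a Benjamini-Hochberg adjusted p under 0.05, and 1, Car8, had an unadjusted p under 0.05. With normexp background correction and median centring, 5 of the 8 had an unadjusted p under 0.05 and Car8 did not. In that setting 6401 features had a limma adjusted p under 0.05, among them 1 member, Pcp4. The share of all features at an unadjusted p under 0.05 is not given for that setting, so nothing is read from the 5 of 8. With the deposited ratios, 0.00% of all 24649 features passed at a limma adjusted p under 0.05, with a lowest adjusted p of 0.205. Of these features, 17.1% had an unadjusted p under 0.05. An exact sign-flip test on 2 arrays cannot go below p = 0.5. The median over the members was 0.10, against 0.02 over all features, with 3 members lower and 5 higher. Past 2-fold lower by this mean lay 0 members, where 3.34% of all features did.

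Single members are given with their 95% interval and limma's adjusted p. Pcp2 had a mean log2 ratio of 0.06 (-0.48 to 0.59, adjusted p = 0.882) and Pcp4 of 0.23 (-0.22 to 0.68, adjusted p = 0.468). Pcp4 moved to 0.68 with normexp and median centring (limma adjusted p = 0.0344), where 6401 features passed. Itpr1 stood at -0.20 (-0.68 to 0.28, adjusted p = 0.538), and turned to 0.39 with normexp and median centring (limma adjusted p = 0.0705). The lowest bound among these Purkinje cell genes was -0.68.

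For the granule cell genes, Zic1 had a mean of 0.34 (-0.99 to 1.68, limma adjusted p = 0.697), Zic2 of 0.14 (-0.36 to 0.64, limma adjusted p = 0.675) and Cbln1 of -0.17 (-1.03 to 0.69, limma adjusted p = 0.763). En2 stood at -0.18 (-0.82 to 0.46, limma adjusted p = 0.675). The interval of Cbln1 reached a 2-fold decrease. That of Zic1 stopped just short of a 2-fold decrease and went past a 2-fold increase. Car8 had a mean of 0.54 (0.06 to 1.02, unadjusted p = 0.037 and adjusted p = 0.266 by limma) from signals that were not well above background in either channel, and turned to -0.22 with normexp and median centring (limma adjusted p = 0.174). Calb1 and Cbln3 had no ratio on both arrays.

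**Figure D3:**
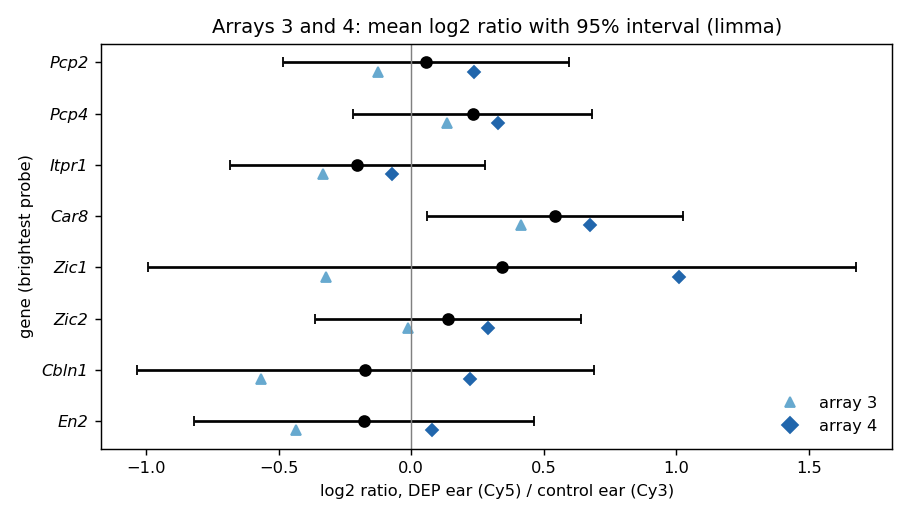
Mean log2 ratio of the DEP ear over the control ear on arrays 3 and 4 (horizontal axis) for the 8 members with a ratio on both (vertical axis), as black points with 95% intervals from limma, and coloured points for the single arrays. The intervals of 7 members span 0, and that of Car8, whose probe was not well above background, runs from 0.06 to 1.02.

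Other genes of the same cells were taken from lists of known markers, and the examples named from these lists were chosen after their values were seen. For each count below of genes past 2-fold lower on both arrays 1 and 2, the share over all features was 4.89%. Of 20 other Purkinje cell genes, 12 lay past 2-fold lower on both arrays 1 and 2, and their medians were -1.94, -2.42, -0.15 and 0.01 on arrays 1 to 4. Of the 20 genes, 14 were well above background in both channels of every array, and of the 12, 7 were and 1 was above background on no array. Slc1a6, the Purkinje cell glutamate transporter, had ratios of -3.26, -4.65, -0.27 and 0.59. Gng13, a G protein gamma subunit, had -3.37, -5.41, -0.51 and -0.39. Mtss1, at -0.11, -0.11, -0.15 and 0.00, and Rora, a nuclear receptor needed by Purkinje cells, at 1.17, -0.46, 0.49 and -1.04, did not follow the pattern.

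Of 18 other granule cell genes, 16 had enough ratios and 13 of these lay past 2-fold lower on both arrays 1 and 2, with medians of -2.25, -1.85, -0.49 and 0.13. Of the 16 genes, 8 were well above background throughout, and of the 13, 6 were. Gabra6, the GABA-A receptor subunit characteristic of granule cells, had ratios of -5.11, -7.16 and -0.24 on arrays 1 to 3 and none on array 4. Gabrd, a subunit that pairs with it, had -3.74, -4.39, -0.50 and 0.51. Barhl1, at 0.06, -0.13, -0.61 and -0.47, did not follow. Of 8 genes of Bergmann glia, the radial glia of the cerebellar cortex, 5 lay past 2-fold lower on both arrays.

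The partners of the members showed the split by array in part. At the cerebellin synapse Nrxn2 and Nrxn3, which encode presynaptic receptors of cerebellins, were low on arrays 1 and 2. Nrxn2 had ratios of -2.72, -2.56, -0.79 and 0.01, and Nrxn3 of -3.82, -3.44, -0.67 and -0.21. Cbln2, a cerebellin found outside the granule cells too, was near 0 at -0.61, -0.08, -0.38 and -0.16. In all 4 of the 6 genes of this list that are no members lay past 2-fold lower on both arrays 1 and 2, and 1 of these 4 was above background on no array.

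Along the calcium release pathway, 3 of 8 genes that are no members did so. The broadly expressed receptors Itpr2, at 0.06, 0.32, -0.31 and -0.43, and Itpr3, at 1.39, 0.32, -0.10 and -0.28, stood apart from Itpr1. Gnaq, a G protein alpha subunit of the pathway, was near 0 on all arrays, from -0.33 to 0.09.

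In the Zic and engrailed families, 3 of 4 genes that are no members lay past 2-fold lower on both arrays 1 and 2. Zic4 had -2.31, -2.04, -0.81 and 0.84, the last from a control signal of 23.4 that was not well above background. En1, the relative of En2, was near background, with mean signals of at most 8.24 in the DEP ear and 9.21 in the control ear.

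Markers of other cells moved with the members to different degrees. Of 15 genes common to neurons, 11 lay past 2-fold lower on both arrays 1 and 2, with medians of -2.37, -1.49, -0.89 and 0.27, and all 15 were well above background throughout. Their summed signal ran from 25666 to 39142 in the DEP ear and from 29402 to 108871 in the control ear. Of 12 oligodendrocyte genes 3 did so, with medians of -1.64, -0.33, -0.21 and 0.22 and summed signals of 23486 to 27543 in the DEP ear and 21474 to 105758 in the control ear. Olig2, a defining marker, was not well above background in the DEP ear on any array. Of 9 astrocyte genes 3 did so, 2 of which are also among the Bergmann glia genes counted above, with medians of -1.45, -0.23, -0.10 and 0.13 and summed signals of 37268 to 52783 in the DEP ear and 44448 to 91911 in the control ear.

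Forebrain genes had medians of -0.48, 0.13, -0.19 and -0.23 over 14 genes, of which 1 lay past 2-fold lower on both arrays and 8 were well above background throughout. Their summed signal ran from 6384 to 9619 in the DEP ear and from 7336 to 11652 in the control ear. Genes of the middle ear epithelium had medians of -0.23, 0.43, -0.31 and -0.47. All 10 were well above background in each channel of every array. So were all 15 genes common to neurons, so this does not identify the tissue. Skeletal muscle genes, 10 of 10 well above background throughout, had medians of -0.85, -0.54, 0.73 and 0.63. For comparison, the summed signal of the granule cell members ran from 1493 to 2232 in the DEP ear and from 853 to 32722 in the control ear, and that of the Purkinje cell members from 7244 to 15838 in the DEP ear and from 6615 to 89259 in the control ear. The part of these other cell types in the members' ratios was not tested.

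**Figure D4:**
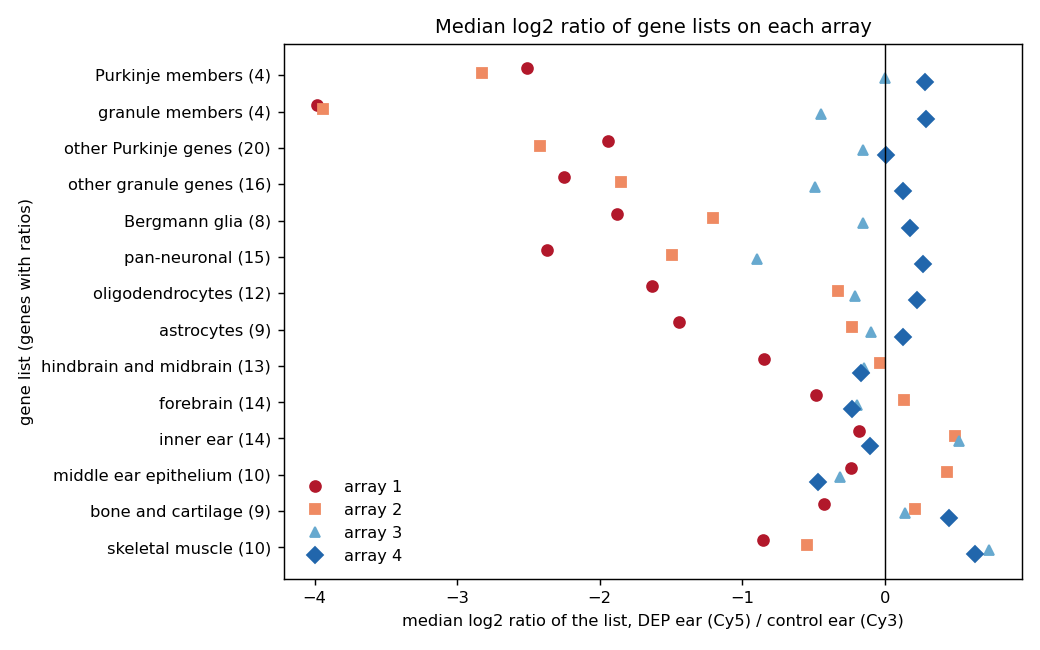
Median log2 ratio of the DEP ear over the control ear (horizontal axis) on arrays 1 to 4 for the gene lists (vertical axis, with the number of genes). The granule cell members stand at -3.98 and -3.94 on arrays 1 and 2 and at 0.29 on array 4.

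On arrays 3 and 4, 0 genes of any list had an adjusted p under 0.05 by limma. At an unadjusted p under 0.05, which 17.1% of all features had, were 4 of 18 other Purkinje cell genes, 3 of 14 other granule cell genes, 0 of 15 genes common to neurons, 4 of 13 forebrain genes, 3 of 9 bone and cartilage genes and 7 of 10 skeletal muscle genes. The median over these arrays was -0.43 among the genes common to neurons and 0.69 among the skeletal muscle genes.

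Genes outside the members with the most similar array profile were found by the distance of their 4 log2 ratios from the median profile of the 7 fully measured members (-2.55, -3.16, -0.32 and 0.24), among 18344 features. Of the 10 nearest, 8 are named. Gria4, an AMPA receptor subunit, lay at a distance of 0.26, with ratios of -2.53, -3.26, -0.50 and 0.40. Ajm1, Cnnm1, Aldoc, Mybpc3, Trim9, Cdh22 and Gm2694 lay at distances of 0.32 to 0.47. Of the members, Pcp2 was nearest to the profile at 0.21 and En2 farthest at 2.20.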

How the data were processed

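The members and gene lists were chosen with earlier results of these data known. Each array gave a scanner file made by the authors with Agilent Feature Extraction 10.10.1.1, per the labels. Its deposited log10 ratio of Cy5 over Cy3 was converted to log2, and its deposited intensity in each channel was already background-subtracted and dye-normalized by that software. The deposited value table held the same log10 ratios, rounded, and 0 columns lacked a sample. Control spots were left out. Spots flagged as outliers (164 to 274 per array) and spots without a ratio (6179 to 8558 of 43020) were left out of the ratios. The signals in each channel, and the range and SD between the En2 spots, hold all spots of a probe. Spots of a probe were averaged, and the brightest probe stood for its gene. Of 39429 probes, 27649 were named through RefSeq accessions. Where the control was above background but the DEP ear was not on any array, the fold is a bound against the lowest signal well above background. The means over 4 arrays needed 3 ratios and those over arrays 3 and 4 needed 2. Fits used limma 3.58.1 in R 4.3.3, checked on simulated data, and Python 3.11.15. The rule for named genes took the members, the genes of the cerebellin, calcium release and Zic lists, the defining marker of each other list and the 10 genes nearest in profile. Some of these genes are not reported here. The authors' own fold changes and p-values were not used. Alternatives were normexp background correction (offset 50, on median signals) with loess or median centring, median centring of the ratios, the deposited table, filters on dim probes, flagged spots kept, other tests and probe rules, and leaving out each array. The number of arrays limits the precision.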

Additional observations from a re-analysis of the deposited data

Results flagged for a closer look

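Over 43 groups of 4 array values tested with Dixon's criterion at its 95% critical value, 2 had an array that stood apart, where chance gives about 1 in 20. The DEP ear level of Zic2 (A_55_P1962523, log2 after scaling) had a gap of 0.887 of its range, because array 1, with a signal of 199, lay below the others. The median log2 ratio of the hindbrain and midbrain genes had a gap of 0.835, because array 1 stood at -0.84 and arrays 2 to 4 at -0.03, -0.14 and -0.17.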

How the results depend on the processing

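With normexp and median centring, members past 2-fold lower by the mean of 4 arrays fell from 8 to 5, 1 member (Pcp4, mean 0.68, limma adjusted p = 0.0344) against 0 passed on arrays 3 and 4, and 6401 features against 0 passed. There Itpr1 turned from -0.20 to 0.39 and Car8 from 0.54 to -0.22. This setting moved the median over all features to 0.11 over 4 arrays and to 0.19 on arrays 3 and 4, and the cause was not tested. Leaving out each array gave 4 to 10 members past 2-fold lower, of 9 members without array 1 or 2 and of 10 without array 3 or 4, where 2 ratios were enough and Calb1 entered. The median member ratio was then -2.40 to -0.97, against -1.48, which is the mean of Car8, from DEP signals near background. For arrays 3 and 4 the median of 0.10 became -0.32 without array 4 and 0.26 without array 3, and no call could be made from 1 array. Cbln3 moved from -4.15 to -1.63 with normexp and loess. Over 97 values tried for the means of single members, which hold arrays 1 and 2, the range was -5.44 to -0.43. Leaving out 1 array moved Car8 to between -2.20 and -0.66 and Zic2 to between -1.20 and -0.43. No paired analysis was possible because there is 1 group and each ratio is already taken within an array. Calls for Calb1, Car8 and Cbln3 are limited by signals near background in the DEP ear.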
